A study of Mus musculus with 6 samples.

Results

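The genes described here encode the translation initiation factors (eIFs) and elongation factors (eEFs) of the cytosol, with some related proteins that share their names. They were taken from the deposited gene counts as the protein-coding genes whose symbols begin with Eif or Eef and a digit, leaving out the eIF2 kinases (Eif2ak), the eIF4E binding proteins (Eif4ebp) and Eif4enif1. The rule found 61 genes of 25241 in the table, with 6 in eIF1, 6 in eIF2, 5 in eIF2B, 14 in eIF3, 12 in eIF4, 4 in eIF5, 1 in eIF6 and 13 in eEF. By name alone, eEF also holds genes that encode no elongation factor: Eef1e1 of the aminoacyl-tRNA synthetase complex, the kinase gene Eef2k and 5 methyltransferase genes. Counts and medians of all members and of eEF include these. Their transcripts were measured by RNA sequencing in neural stem cells from the mouse hippocampus, derived from the subgranular zone, wild type and at passage 3. The 3 cadmium samples received 0.8 μM CdCl₂ for 72 h, and the 3 control samples were untreated. The replicates are labelled biological, without saying whether they came from separate animals or platings, so p-values refer to sample-to-sample spread, which may be technical.

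Translation starts when eIF2, loaded with GTP and the initiator tRNA, joins the small ribosomal subunit together with eIF1, eIF1A, eIF3 and eIF5. The cap-binding complex eIF4F (the cap-binding protein eIF4E, the helicase eIF4A and the scaffold eIF4G) brings the mRNA, eIF5B joins the large subunit, and eIF2B recharges eIF2 with GTP for the next round. Elongation then runs on eEF1A, which delivers aminoacyl-tRNA, its exchange factor eEF1B, and the translocase eEF2. Stress kinases phosphorylate eIF2 and so block eIF2B, and mutations of eIF2B genes are known from a white matter disease in which astrocytes and oligodendrocytes are affected.

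Levels are in CPM, read counts relative to the TMM-scaled library size, or in FPKM where genes are compared with each other, since FPKM also divides by gene length. A gene is said to have risen or fallen at an adjusted p below 0.05 in edgeR's quasi-likelihood test, with Benjamini-Hochberg adjustment over all 14369 genes tested. Log2 fold changes are cadmium over control, given ± SE, and levels are mean ± SD of 3 libraries or the value of each library in the order of replicates 1, 2 and 3. Library totals lay between 37710042 and 40748613 counts in cadmium and between 40634758 and 41523231 counts in control libraries. Control replicate 3 stood apart from the other control libraries, with a chi-square statistic over genes of 12.8 and 11.8 per degree of freedom against them, where the other pairs within groups lay between 3.43 and 6.59. Counts of members are also given without it where they differ.

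Of 7 neural stem and progenitor markers (Nes, Sox2, Pax6, Fabp7, Vim, Hes5 and Sox9) all passed the filter on low counts, 3 rose (Nes, Vim and Fabp7) and 4 fell, with a median log2 fold change of -0.27 and Hes5 lowest (-1.20 ± 0.14). Fabp7 did not pass without cadmium replicate 1, cadmium replicate 2 or control replicate 2. Their summed level, most of which was Vim and Fabp7, was 6966 to 7164 CPM in cadmium and 6232 to 6556 CPM in control libraries. Markers of other cell types moved with the exposure, where 23.1% of all genes tested rose and 22.4% fell. Of 8 astrocyte markers 7 fell and 1 rose, and their summed level was 2963 to 3109 CPM in cadmium and 5112 to 6035 CPM in control libraries. Most of the difference in this sum was Gfap, at 875 ± 64.2 CPM in cadmium and 2809 ± 466 CPM in control libraries. Of 6 proliferation markers 4 rose (Top2a, Pcna, Mcm2 and Cdk1) and 0 fell. All 6 summed to 2256 to 2268 CPM in cadmium and 1866 to 2062 CPM in control libraries. Mki67 (0.03 ± 0.05) and Ccnb1 (0.07 ± 0.04) overlapped between groups, and Top2a passed in 9 of 14 alternative fits. Oligodendrocyte lineage markers (2 rose and 4 fell of 7 tested among 8) had sums of 3103 to 3283 CPM in cadmium and 2974 to 3125 CPM in control libraries, with 1 rise and 4 falls without control replicate 3. Of 7 neuronal markers 0 rose and 1 fell, and 1 rose and 1 fell without control replicate 3. Microglial, endothelial and fibroblast markers summed to at most 0.666, 3.14 and 1.06 CPM in cadmium and 0.510, 4.96 and 1.97 CPM in control libraries. The part of such shifts in the changes of translation factor genes was not tested, and in these bulk samples fewer cells of a type and less RNA per cell cannot be told apart.

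Translation factor genes were mostly higher after cadmium, by small amounts. Of 58 members tested, 31 rose and 4 fell, where 23.1% of all genes tested rose and 22.4% fell. Without control replicate 3, 32 rose and 3 fell, and in 17 of the 31 that rose it was the lowest control library. The median log2 fold change of the 58 was 0.17, against -0.01 over all genes tested. In 35 of the 58 all cadmium libraries lay above all control libraries and in 6 all lay below, against 28.0% and 28.3% of all genes tested. Of the 35 members called, 32 changed by less than 1.5-fold. The median by factor was 0.29 for eIF1, 0.17 for eIF2, 0.12 for eIF2B, 0.12 for eIF3, 0.19 for eIF4, 0.21 for eIF5 and 0.09 for eEF. These groups follow gene names, and eIF2 includes Eif2a and Eif2d, whose products are no eIF2 subunits. Subunit genes alone had medians of 0.31 for eIF2 and 0.36 for eIF4F. All members together took 2.44%, 2.51% and 2.49% of counts in cadmium libraries, against 2.33%, 2.33% and 2.35% in control libraries, without overlap. Eef1a1 alone took 0.899% to 0.932% in cadmium and 0.902% to 0.922% in control libraries, which overlapped.

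**Figure D1:**
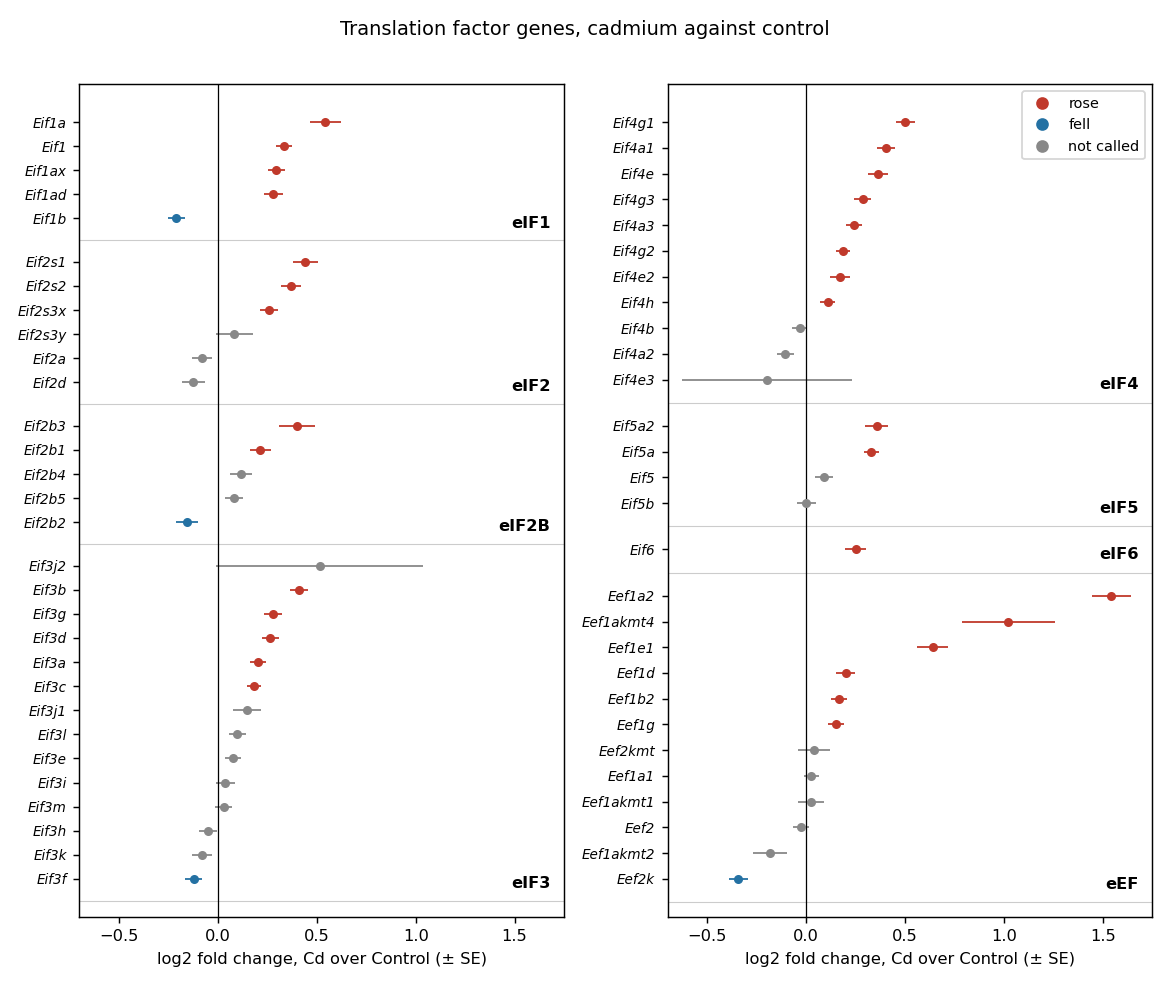
Log2 fold changes, cadmium over control, of the 58 members tested, as edgeR estimates (points) ± SE (bars), ordered within each factor, with those that rose in red, those that fell in blue and those that did not pass in grey. Most points lie to the right of 0, and Eef1a2 lies furthest right at 1.54.

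Most genes of the eIF1 name rose, among them Eif1, Eif1a and Eif1ax, whose products sit on the small subunit during scanning. Of 5 eIF1 members tested, 4 rose and 1 fell, where 23.1% of all genes tested rose and 22.4% fell. Eif1 (Entrez 20918), which encodes the guardian of start codon choice, had 366, 375 and 363 CPM in cadmium libraries, against 292, 280.1 and 304 CPM in control libraries (0.33 ± 0.04, adjusted p = 1.4e-05, edgeR). The cadmium libraries all lay above the control libraries. Its paralogue Eif1b (68969) went the other way, with 94.3, 93.0 and 96.7 CPM in cadmium libraries, against 107, 109.7 and 112 CPM in control libraries (-0.21 ± 0.04, adjusted p = 0.001, edgeR), also without overlap. Among the other members, both genes for eIF1A, which helps scanning, rose. Eif1a had 38.7, 44.5 and 41.8 CPM in cadmium libraries, against 29.0, 31.2 and 25.4 CPM in control libraries (0.54 ± 0.08, adjusted p = 5.1e-05, edgeR), and Eif1ax, the X-linked copy, had 198, 195 and 200.3 CPM in cadmium libraries, against 169, 156 and 159 CPM in control libraries (0.29 ± 0.04, adjusted p = 5.4e-05, edgeR). The 2 copies are alike in sequence and can share reads. Eif1ad, which encodes a protein with an eIF1A domain, rose by 0.28 ± 0.05. Per length, Eif1b made up the following shares of the summed FPKM of Eif1 and Eif1b: 26.2%, 25.4% and 26.8% in cadmium libraries, against 33.5%, 35.0% and 33.6% in control libraries. The groups did not overlap (exact permutation test, two-sided, p = 0.1, the smallest that 3 against 3 allows). It is 1 of 7 such shares compared, and its adjusted p was 0.14.

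Of the 4 genes of the eIF2 trimer 3 rose and 1, the Y-linked gene, did not pass. Among all genes tested 23.1% rose and 22.4% fell. Eif2s1 (13665), the α subunit that stress kinases phosphorylate, had 103, 111 and 111 CPM in cadmium libraries, against 81.8, 86.3 and 71.1 CPM in control libraries (0.44 ± 0.06, adjusted p = 8.3e-05, edgeR). Control replicate 3 was the lowest, and no control library reached the cadmium range. For the β subunit gene Eif2s2 (67204) the values were 121, 119 and 122 CPM in cadmium libraries, against 95.4, 98.8 and 86.3 CPM in control libraries (0.37 ± 0.05, adjusted p = 4.1e-05, edgeR). The γ subunit is encoded by an X-linked and a Y-linked gene. Eif2s3x had 185, 202 and 199.7 CPM in cadmium libraries, against 164, 169 and 158 CPM in control libraries (0.26 ± 0.04, adjusted p = 0.00031, edgeR). Eif2s3y, at 12.8, 10.3 and 12.04 CPM with cadmium, against 10.9, 11.4 and 10.8 CPM in control libraries, overlapped between groups (0.08 ± 0.09, adjusted p = 0.5, edgeR), and its share of the summed FPKM of the pair was 1.97% to 2.65% in cadmium and 2.56% to 2.62% in control libraries (exact permutation test, two-sided, p = 0.4). The 2 γ genes are close copies that can share reads. Eif2a and Eif2d, whose products act apart from the trimer, did not pass the test (-0.08 ± 0.05 and -0.12 ± 0.06).

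Of the 5 subunit genes of the exchange factor eIF2B 2 rose and 1 fell, and 2 rose and 0 fell without control replicate 3, where 23.1% of all genes tested rose and 22.4% fell. Eif2b3 (108067), the γ subunit, had 15.4, 14.99 and 14.7 CPM in cadmium libraries, against 12.7, 11.5 and 9.96 CPM in control libraries (0.40 ± 0.09, adjusted p = 0.0026, edgeR). Eif2b1, the α subunit of the regulatory core, had 50.1, 53.4 and 52.6 CPM in cadmium libraries, against 43.6, 46.5 and 44.5 CPM in control libraries (0.21 ± 0.05, adjusted p = 0.0038, edgeR). Both were separated without overlap. The β subunit gene Eif2b2 fell, with 71.4, 79.7 and 75.0 CPM in cadmium libraries, against 81.5, 80.4 and 89.7 CPM in control libraries (-0.15 ± 0.06, adjusted p = 0.034, edgeR). Cadmium replicate 2 came close to the lowest control library. Leaving out cadmium replicate 1, cadmium replicate 3 or control replicate 3 ended the call, with adjusted p of 0.16, 0.10 and 0.097. Eif2b4 (δ) and the catalytic subunit gene Eif2b5 (ε) were at 0.12 ± 0.05 and 0.08 ± 0.04 and did not pass.

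Of the 14 genes of eIF3, the large scaffold of the small subunit, 5 rose, 1 fell and 8 did not pass. Without control replicate 3, 6 rose and 0 fell. Among all genes tested 23.1% rose and 22.4% fell. Eif3b (27979), which holds the module of the b, g and i subunits, had 234, 249 and 239 CPM in cadmium libraries, against 185, 187 and 170.2 CPM in control libraries (0.41 ± 0.05, adjusted p = 5.7e-06, edgeR). For Eif3g, an RNA-binding subunit of the same module, the values were 102, 109.7 and 105 CPM in cadmium libraries, against 86.9, 86.2 and 87.6 CPM in control libraries (0.28 ± 0.04, adjusted p = 0.00014, edgeR). Eif3d, whose product can bind the mRNA cap, had 196, 198 and 196 CPM in cadmium libraries, against 158, 171 and 162 CPM in control libraries (0.26 ± 0.04, adjusted p = 0.00013, edgeR). In each of these 3 genes the groups were apart. The third gene of the module, Eif3i, was at 197 ± 9.23 CPM in cadmium and 192 ± 9.98 CPM in control libraries and overlapped (0.04 ± 0.05, adjusted p = 0.56, edgeR).

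Among the 8 genes of the core with PCI or MPN domains, the median log2 fold change was 0.05, against 0.27 for the 6 others, of which 3 did not pass, and the difference between these sets was not tested. Eif3a (0.20 ± 0.04) and Eif3c (0.18 ± 0.04), the largest core subunits, rose. Eif3f, an MPN subunit, fell, with 274, 277 and 273 CPM in cadmium libraries, against 288, 291 and 316 CPM in control libraries (-0.12 ± 0.04, adjusted p = 0.029, edgeR). Its control values included one high library, replicate 3, and its call was lost without it (adjusted p = 0.058), without any 1 of the cadmium libraries (0.066 to 0.11) and with no filter on low counts (0.057). The other MPN gene Eif3h and the PCI genes Eif3e, Eif3k, Eif3l and Eif3m lay between -0.08 and 0.10 and did not pass, though Eif3l passed without control replicate 3 (adjusted p = 0.0042) and with no filter on low counts (0.032). Of the loosely bound subunit j, Eif3j1 was at 0.15 ± 0.07 and its near copy Eif3j2 at 0.52 ± 0.52, with 8.31, 3.65 and 4.14 CPM in cadmium libraries, against 5.07, 1.72 and 4.52 CPM in control libraries. Cadmium replicate 1 was high and control replicate 2 low, and reads can be shared between the copies. Eif3j1 passed without cadmium replicate 1 (adjusted p = 0.036), without control replicate 2 (0.034) and with no filter on low counts (0.019), and Eif3j2 with replicate number as a block (0.033).

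**Figure D2:**
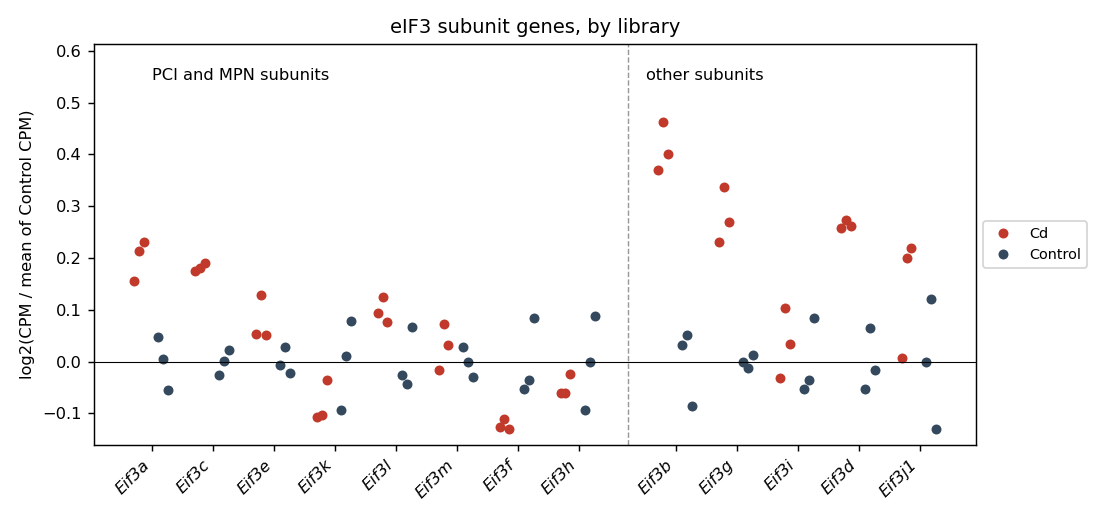
Level of eIF3 subunit genes in each library as log2 of CPM over the mean of control libraries, with cadmium in red, control in dark, the PCI and MPN subunits left of the dashed line and Eif3j2 not drawn. Eif3b, Eif3d and Eif3g have the largest differences of means drawn, and Eif3f lies below its control libraries.

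Of the 5 genes of eIF4F 4 rose, with 1 exception, where 23.1% of all genes tested rose and 22.4% fell. Eif4g1 (208643), the main scaffold, had 699, 732 and 689 CPM in cadmium libraries, against 526, 515 and 457 CPM in control libraries (0.50 ± 0.05, adjusted p = 3.2e-06, edgeR). The cadmium libraries lay close together and above every control library, of which replicate 3 was the lowest. Eif4a1 (13681), the main helicase, had 892, 933 and 894 CPM in cadmium libraries, against 699, 717 and 642 CPM in control libraries (0.40 ± 0.04, adjusted p = 5.6e-06, edgeR). For Eif4e (13684), the cap-binding protein, the values were 187, 199 and 203 CPM in cadmium libraries, against 159, 157 and 142 CPM in control libraries (0.36 ± 0.05, adjusted p = 3.6e-05, edgeR). The second scaffold gene, Eif4g3, had 169.9, 170.4 and 167 CPM in cadmium libraries, against 137, 144 and 136 CPM in control libraries (0.28 ± 0.04, adjusted p = 5.7e-05, edgeR). All of these were separated without overlap. The exception was the helicase paralogue Eif4a2, with 161, 161 and 163 CPM in cadmium libraries, against 181, 174 and 166 CPM in control libraries (-0.11 ± 0.04, adjusted p = 0.052, edgeR). Its cadmium libraries lay below all control libraries, and it passed as a fall without control replicate 3 (adjusted p = 0.0046), with upper-quartile scaling (0.041) and with at least 5 CPM in 3 libraries (0.032).

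The promoters of the 3 highest-rising eIF4F genes, Eif4g1, Eif4a1 and Eif4e, hold the letters CACGTG, the E-box that Myc and Max and related factors bind, while the windows of Eif4g3, which rose, and Eif4a2, which did not pass, do not. Stretches around a match in the RefSeq start windows (250 bases before to 50 after an annotated start, build GRCm38.p6) are shown 5′ to 3′ with the E-box in capitals, next to those of Eif5a, which rose, Eef2, which did not pass, and Eif3f, which fell, to show that the letters occur in all of these.
Eif4g1 (chr16:20672636-20672715, plus strand, 54 bases before the start): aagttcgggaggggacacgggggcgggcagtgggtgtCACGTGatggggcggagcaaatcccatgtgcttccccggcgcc
Eif4a1 (chr11:69672570-69672649, minus strand, 189 bases before the start): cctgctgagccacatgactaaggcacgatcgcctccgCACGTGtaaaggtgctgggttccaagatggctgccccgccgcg
Eif4e (chr3:138527018-138527082, plus strand, 228 bases before one of its starts): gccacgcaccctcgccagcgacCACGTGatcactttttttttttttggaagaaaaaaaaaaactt
Eif5a (chr11:69920766-69920845, minus strand, 178 bases before one of its starts): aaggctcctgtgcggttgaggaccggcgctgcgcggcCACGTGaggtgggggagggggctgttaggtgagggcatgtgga
Eef2 (chr10:81176551-81176630, plus strand, 43 bases before the start): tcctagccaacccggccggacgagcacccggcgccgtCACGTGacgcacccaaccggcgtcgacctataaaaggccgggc
Eif3f (chr7:108934310-108934389, plus strand, 68 bases before the start): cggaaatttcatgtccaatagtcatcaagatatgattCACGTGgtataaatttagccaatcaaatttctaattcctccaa

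CACGTG, which reads the same on both strands, was found for 13 of the 46 members with a RefSeq window (28.3%), against 11.5% of the 11225 genes tested that have one and 8.09% of all 27025 genes. It occurred in 8 of 25 members that rose, 3 of 4 that fell (Eef2k, Eif1b and Eif3f) and 2 of 17 that did not pass (Eef2 and Eif3k). Over all genes it was held by 13.5% of those that rose and 10.2% of those that fell. The core of the antioxidant response element, TGACNNNGC on either strand, occurred for 12 of the 46 (26.1%), against 16.9% of the genes tested, with 7 of 25 that rose, 0 of 4 that fell and 5 of 17 that did not pass. In 3 members (Eef2, Eif5a and Eif5a2) a match of one motif overlapped a match of the other. A match is a string of letters and no measured binding site.

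**Figure D3:**
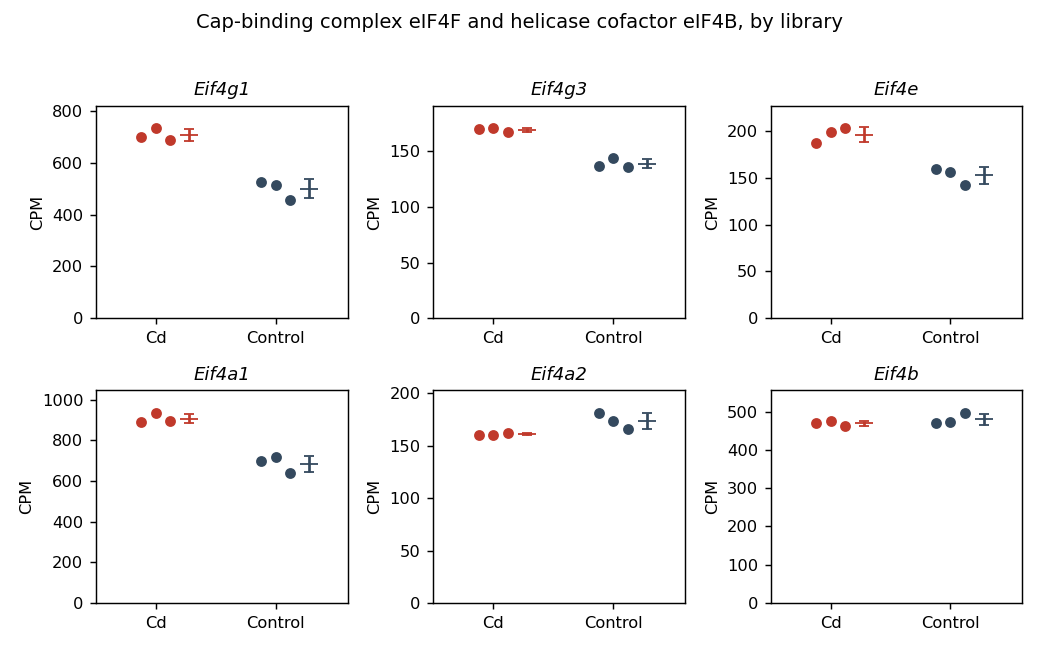
CPM of the eIF4F genes and of Eif4b in each cadmium (red) and control (dark) library, with mean ± SD of 3 libraries beside the points. Eif4g1, Eif4g3, Eif4e and Eif4a1 are higher with cadmium without overlap, Eif4a2 is lower without passing the test, and the Eif4b groups overlap.

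Outside eIF4F proper, Eif4g2 (13690), a scaffold homologue that does not bind eIF4E, had 1452, 1411 and 1467 CPM in cadmium libraries, against 1305, 1261 and 1241 CPM in control libraries (0.19 ± 0.04, adjusted p = 0.00087, edgeR). Eif4e2, a cap-binding protein known as a repressor, had 79.9, 83.3 and 79.1 CPM in cadmium libraries, against 71.7, 75.3 and 68.4 CPM in control libraries (0.17 ± 0.05, adjusted p = 0.011, edgeR), a call that ended when cadmium replicate 2 was left out (adjusted p = 0.052). Eif4a3, a helicase of the exon junction complex, rose by 0.24 ± 0.04. Of the helicase cofactors, Eif4h rose by 0.11 ± 0.04, a call lost without cadmium replicate 2 (adjusted p = 0.067), cadmium replicate 3 (0.14), control replicate 1 (0.077) or control replicate 2 (0.081), and Eif4b was at 469 ± 6.82 CPM in cadmium and 479.7 ± 13.9 CPM in control libraries (-0.03 ± 0.04, adjusted p = 0.51, edgeR). Eif4e3 was near the lower limit, with 8 to 20 counts in cadmium and 11 to 26 counts in control libraries (-0.20 ± 0.43).

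Shares within the eIF4 paralogue sets did not overlap between groups, though 3 libraries against 3 cannot pass the threshold. Eif4a2 made up these shares of the summed FPKM of Eif4a1 and Eif4a2: 6.92%, 6.62% and 6.98% in cadmium libraries, against 9.66%, 9.09% and 9.64% in control libraries. Eif4g1 made up a larger share of the summed FPKM of Eif4g1, Eif4g2 and Eif4g3 with cadmium: 38.3%, 39.97% and 37.7% in cadmium libraries, against 34.4%, 34.5% and 32.3% in control libraries. For Eif4e among Eif4e, Eif4e2 and Eif4e3 the shares were 65.2%, 65.8% and 67.2% in cadmium libraries, against 64.0%, 62.4% and 62.4% in control libraries. In all of these shares the groups were apart (exact permutation tests, two-sided, p = 0.1 each, the smallest possible, adjusted p = 0.14 over 7 shares).

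**Figure D4:**
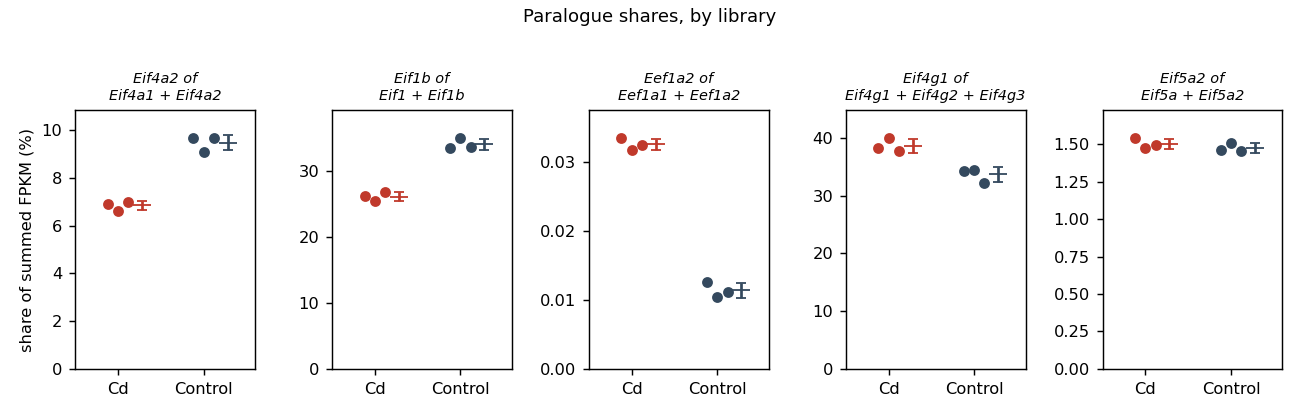
Share of 1 paralogue in the summed FPKM of its pair or set in each cadmium (red) and control (dark) library, with mean ± SD of 3 libraries beside the points and each axis starting at 0. The shares of Eif4a2 and Eif1b are lower and those of Eef1a2 and Eif4g1 higher with cadmium, while the Eif5a2 share overlaps.

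Of the factors that act at subunit joining and after it, the eIF5A genes rose together. Eif5a (276770), whose product carries hypusine and helps the ribosome past difficult peptide bonds, had 933, 978 and 943 CPM in cadmium libraries, against 769, 763 and 741 CPM in control libraries (0.33 ± 0.04, adjusted p = 7.2e-06, edgeR). Eif5a2 had 35.0, 35.2 and 34.3 CPM in cadmium libraries, against 27.3, 28.0 and 26.2 CPM in control libraries (0.36 ± 0.06, adjusted p = 0.00017, edgeR). Both were without overlap, and Eif5a2 had a share of the summed FPKM of the pair of 1.48% to 1.54% in cadmium and 1.45% to 1.51% in control libraries, which overlapped (exact permutation test, two-sided, p = 0.4, difference 0.03 percentage points). Eif5, the GTPase activator of eIF2, was at 444 ± 11.1 CPM in cadmium and 417 ± 25.2 CPM in control libraries (0.09 ± 0.04, adjusted p = 0.11, edgeR) and passed without control replicate 1 (adjusted p = 0.015) and with no filter on low counts (0.034). The subunit-joining GTPase gene Eif5b was at 69.7 ± 1.44 CPM in cadmium and 69.8 ± 2.51 CPM in control libraries (-0.00 ± 0.05, adjusted p = 0.99, edgeR). Eif6, which encodes a factor that keeps the large subunit from joining early and is needed to make it, had 64.1, 68.9 and 62.2 CPM in cadmium libraries, against 55.2, 52.6 and 56.4 CPM in control libraries (0.25 ± 0.05, adjusted p = 0.0015, edgeR), again without overlap.

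The most abundant members, the core elongation factors, did not pass the test. Eef1a1 (13627) had 8995, 9364 and 9332 CPM in cadmium libraries, against 8939, 8963 and 9299 CPM in control libraries (0.03 ± 0.04, adjusted p = 0.59, edgeR), and Eef2 (13629) had 3423, 3557 and 3572 CPM in cadmium libraries, against 3439, 3519 and 3779 CPM in control libraries (-0.03 ± 0.04, adjusted p = 0.65, edgeR). Both overlapped between groups, and Eef1a1 has many processed pseudogenes that can take up or lose its reads. Per length they led all members, at 5139 FPKM in cadmium and 5078 FPKM in control libraries for Eef1a1 and 1131 FPKM in cadmium and 1157 FPKM in control libraries for Eef2, while Eif4a1 came next in cadmium libraries (481 FPKM, against 366 FPKM in control libraries). The 3 genes of the exchange factor eEF1B all rose slightly. Eef1b2 had 391.7, 395 and 388 CPM in cadmium libraries, against 350.1, 338 and 359.6 CPM in control libraries (0.17 ± 0.04, adjusted p = 0.0025, edgeR), Eef1d rose by 0.20 ± 0.05 and Eef1g by 0.15 ± 0.04. In each the groups were apart.

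The largest relative rise of any member was that of Eef1a2 (13628), the eEF1A isoform of muscle and mature neurons. It had 13.4, 13.3 and 13.5 CPM in cadmium libraries, against 4.999, 4.16 and 4.64 CPM in control libraries, from 499 to 547 counts in cadmium and 174 to 205 counts in control libraries (1.54 ± 0.10, adjusted p = 9e-08, edgeR). The groups lay far apart relative to their spread. Of the neuronal markers Dcx fell (-0.94 ± 0.17), with Neurod1 (0.52 ± 0.28), Rbfox3 (0.32 ± 0.26) and Tubb3 (0.12 ± 0.09) not passing, though Tubb3 rose without control replicate 3. Snap25 (-0.34 ± 0.21), Syt1 (-0.23 ± 0.22) and Map2 (-0.09 ± 0.05) did not pass either. Snap25 passed as a fall by limma on log2(FPKM + 1) (adjusted p = 0.048). The sum over all 7 neuronal markers, 551 to 634 CPM in cadmium and 614 to 652 CPM in control libraries, was nearly all Map2. The part of these markers in the Eef1a2 value was not tested. The Eef1a2 share of the summed FPKM of Eef1a1 and Eef1a2 was 0.0335%, 0.0318% and 0.0324% in cadmium libraries, against 0.0125%, 0.0104% and 0.0112% in control libraries (exact permutation test, two-sided, p = 0.1, adjusted p = 0.14 over 7 shares). Eef1e1 (66143), which encodes a scaffold of the aminoacyl-tRNA synthetase complex, had 37.3, 41.6 and 44.2 CPM in cadmium libraries, against 27.5, 28.0 and 23.6 CPM in control libraries (0.64 ± 0.08, adjusted p = 1.4e-05, edgeR). The cadmium libraries lay above all control libraries. The kinase gene Eef2k (13631), whose product phosphorylates and slows eEF2, showed the largest fall, with 193, 184 and 187 CPM in cadmium libraries, against 231, 227 and 259 CPM in control libraries (-0.34 ± 0.05, adjusted p = 5.6e-05, edgeR), also without overlap. Of the 5 genes of methyltransferases that modify eEF1A or eEF2, 4 were tested and 1 rose, where 23.1% of all genes tested rose. It was Eef1akmt4, with 84 to 116 counts in cadmium and 38 to 68 counts in control libraries (1.02 ± 0.23). Eef1akmt2 (-0.18 ± 0.09) passed as a fall only on log2(FPKM + 0.1) and log2(FPKM + 1) (limma adjusted p of 0.034 and 0.037).

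Many mRNAs of the translation machinery carry a terminal oligopyrimidine (TOP) start, through which mTOR controls their translation. Of 10 members listed as TOP mRNAs (Eef1a1, Eef1a2, Eef1b2, Eef1d, Eef1g, Eef2, Eif3e, Eif3f, Eif3h and Eif4b), 4 rose and 1 fell (4 and 0 without control replicate 3), with a median log2 fold change of 0.05, where 23.1% of all genes tested rose and 22.4% fell. Of the 48 other members tested 27 rose and 3 fell, with a median of 0.19, against -0.01 over all genes tested. As a share of all counts, TOP members took 1.48% to 1.54% in cadmium and 1.48% to 1.54% in control libraries. Most of this was Eef1a1 (0.899% to 0.932% in cadmium and 0.902% to 0.922% in control libraries) and Eef2, which did not pass. The 4 TOP members that rose, Eef1a2, Eef1b2, Eef1d and Eef1g, were a small part of the sum, so it says little about them. The members not listed took 0.956% to 0.974% in cadmium and 0.810% to 0.849% in control libraries, without overlap. The difference between these lists was not tested.

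Genes of proteins that regulate the factors changed in several directions. Of 21 tested 11 rose and 2 fell, with a median of 0.13, where 23.1% of all genes tested rose and 22.4% fell. Without control replicate 3, 10 rose and 1 fell. The least stable of the 11 rises were Eif2ak3 (0.14 ± 0.05), which passed in 5 of 14 alternative fits, and Rptor (0.13 ± 0.05), which passed in 7. Eif4ebp1, which encodes an inhibitor of eIF4E, had 49.9, 57.9 and 56.1 CPM in cadmium libraries, against 31.9, 35.7 and 32.6 CPM in control libraries (0.71 ± 0.07, adjusted p = 1.5e-06, edgeR). The groups were apart. Its relatives Eif4ebp2 (0.04 ± 0.05) and Eif4ebp3 (-0.07 ± 0.13) did not pass. The summed FPKM of the 3 inhibitor genes over that of Eif4e was 6.51, 6.76 and 6.53 in cadmium and 6.35, 7.02 and 7.47 in control libraries, which overlapped. For Eif4ebp1 alone the ratio to Eif4e was 2.78, 3.03 and 2.89 in cadmium and 2.095, 2.38 and 2.39 in control libraries, without overlap. These ratios were chosen after the values were seen. Pdcd4, an inhibitor of the eIF4A helicase, fell, with 64.6, 62.2 and 63.3 CPM in cadmium libraries, against 95.9, 89.95 and 98.4 CPM in control libraries (-0.58 ± 0.05, adjusted p = 6.8e-07, edgeR). Ppp1r15a, a subunit of the phosphatase that reverses eIF2 phosphorylation, had 18.9, 21.6 and 19.0 CPM in cadmium libraries, against 12.1, 12.9 and 11.2 CPM in control libraries (0.72 ± 0.08, adjusted p = 1.1e-05, edgeR). Larp1, which binds TOP mRNAs, had 124, 122 and 125 CPM in cadmium libraries, against 87.7, 96.2 and 80.3 CPM in control libraries (0.49 ± 0.06, adjusted p = 9.4e-06, edgeR), and the S6 kinase gene Rps6kb2 fell (-0.24 ± 0.09) with overlapping groups, a call lost without any 1 library other than control replicate 1 (adjusted p of 0.060 to 0.13). Mtor itself was at 0.03 ± 0.04 and did not pass.

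**Figure D5:**
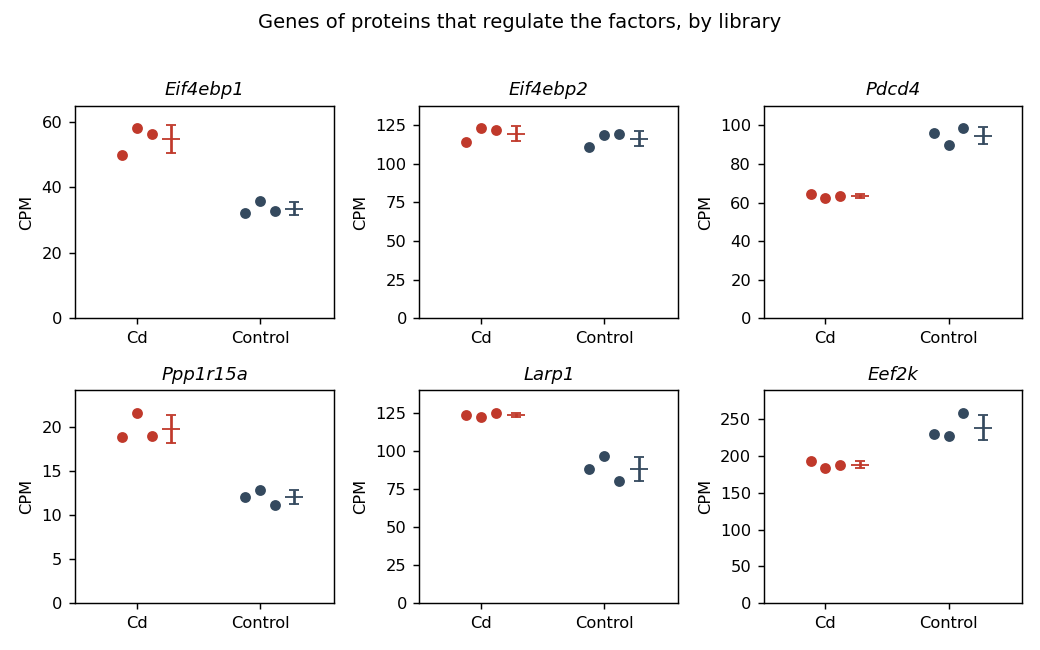
CPM in each cadmium (red) and control (dark) library of 5 genes whose products regulate eIF4E, eIF4A, eIF2 or TOP mRNAs and of the member Eef2k, with mean ± SD of 3 libraries beside the points. Eif4ebp1, Ppp1r15a and Larp1 are higher and Pdcd4 and Eef2k lower with cadmium without overlap, and the Eif4ebp2 groups overlap.

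Other genes of translation were listed to set beside the factors and beside all genes tested, of which 23.1% rose and 22.4% fell. In termination and recycling 4 of 9 rose and 0 fell, with the release factor genes Etf1 at 0.45 ± 0.06 and Gspt1 at 0.32 ± 0.05 and the recycling factor gene Abce1 at 0.40 ± 0.07. Of 8 genes for the enzymes that make hypusine on eIF5A and diphthamide on eEF2, 4 rose and 0 fell. They included Dph2 (0.50 ± 0.10), Dph6 (0.34 ± 0.08) and the deoxyhypusine synthase gene Dhps (0.20 ± 0.06), which did not pass without cadmium replicate 1 (adjusted p = 0.051), cadmium replicate 2 (0.073) or control replicate 1 (0.081). The other rise was Dohh (0.21 ± 0.08). It did not pass without cadmium replicate 2 (adjusted p = 0.15), cadmium replicate 3 (0.076), control replicate 1 (0.075) or control replicate 2 (0.095). Among 5 genes of poly(A) binding, Pabpc4 rose (0.34 ± 0.05), and Paip2 (-0.28 ± 0.05) and Paip2b (-0.19 ± 0.05), which encode inhibitors of the poly(A) binding protein, fell, Paip2b not without cadmium replicate 2 (adjusted p = 0.054). The main poly(A) binding protein gene Pabpc1 was at 0.01 ± 0.04. In mitochondrial translation factors 3 rose and 2 fell of 11 (3 and 1 without control replicate 3), near the shares of 23.1% and 22.4% over all genes tested. Gfm1 (0.22 ± 0.04), Tsfm (0.35 ± 0.07) and Tufm (0.14 ± 0.04), elongation factor genes, rose, and the release factor gene Mtrf1 (-0.39 ± 0.11) and the recycling factor gene Mrrf (-0.16 ± 0.06) fell. Tufm did not pass without cadmium replicate 2 (adjusted p = 0.067) or cadmium replicate 3 (0.080), Mtrf1 not without cadmium replicate 3 (0.062), and Mrrf did not pass whichever library was left out (0.052 to 0.13).

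In all, 3 members had too few counts to be tested. Eif1ad4 had 0 counts in every library, where 3 counts, the limit a count of 0 allows, are 0.0722 to 0.0796 CPM. Eif4e1b had 4 counts in cadmium replicate 1 and 0 in all other libraries, and Eef1akmt3 had 0 to 3 counts in cadmium and 1 to 5 counts in control libraries. Such limits cover counting error only.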

How the data were processed

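Per the file headers and values, the authors deposited whole-number gene counts. The deposited FPKM equal each count divided by a gene length and the library total (largest relative deviation 1.63e-08). Programs listed by the submitters' processing notes, without roles, are HTSeq 0.11.2, HISAT2 2.1.0, DESeq2 1.22.2 and fastp 0.20.1, with build GRCm39. The annotation and strand setting are not given in the sources used here, so reads of antisense or overlapping genes cannot be told apart. A quasi-likelihood model with group as its only term was fitted to counts (robust, TMM scaling; edgeR 4.0.16 under R 4.3.3) after filterByExpr (minimum count 10, minimum total 15), which left 14369 genes. SE is the absolute log2 fold change over the square root of F. The fit was tested on simulated data, with 50 changed genes per size. It recovered 56% of 1.25-fold, 90% of 1.5-fold and 98% of 2-fold changes, and 6.52% of its calls were false. Far fewer of its 14232 genes were changed than were called in the data (3313 rose and 3221 fell). As the adjustment depends on that number, these shares do not carry over to the comparison of cadmium with control. Alternatives were DESeq2 1.42.0, limma 3.58.1 on FPKM as log2 with a pseudocount of 0.1 or 1, other scalings and filters, each library left out, and a replicate block. The members and lists were chosen with earlier results of these data known. Values by library are given for up to 3 members per factor and direction with the smallest p, for paralogue sets, and for the 5 largest changes each way at a mean of 5 CPM or more. Up to 3 genes per other list and direction are named by the same rule, and any further gene named was chosen after its values were seen. Promoter windows are RefSeq's. Depth was 37710042 to 41523231 counts per library, so genes with few counts are the least precise. One marker gene is not reported here and was left out of its list.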

Additional observations from a re-analysis of the deposited data

How the results depend on the processing

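Each of 14 other fits gave 29 to 34 members that rose and 2 to 5 that fell, and 28 of the 31 rises and 2 of the 4 falls (Eef2k and Eif1b) passed in all of them. Eef1akmt4 passed in the 13 that tested it. With replicate number as a block (replicate block), 32 rose and 4 fell, with 3317 and 3192 over all genes. Libraries with the same number did not deviate together (Pearson r of 0.02, 0.05 and -0.01 for numbers 1, 2 and 3, across genes), and the samples share only a number. Leaving out 1 library gave 29 to 32 rises and 2 to 4 falls among members, the 2 falls without cadmium replicate 1 or cadmium replicate 3, and 2719 to 3182 rises and 2617 to 3039 falls over all genes. With a minimum size as well (the higher group at least 25% above the lower), 14 members rose and 1 fell, and 1619 of all genes rose and 1863 fell. The median of all members was 0.19 with no filter on low counts, 0.16 when 3 libraries had to reach 5 CPM, and 0.15 by limma on FPKM with a pseudocount of 1. Of 433 values for 31 named members 419 kept direction and side of the threshold. The log2 fold change of Eif4e3 lay between -0.46 (without control replicate 1) and 0.13 and turned to 0.08 without cadmium replicate 2 and 0.13 without control replicate 2. As shares of counts, which do not divide by length, cadmium minus control was -5.11 percentage points for Eif4a2, 0.0654 for Eif5a2, 0.0943 for Eef1a2, -0.666 for Eif2s3y and -6.83 for Eif1b, all with the sign of the FPKM shares. The cause of these shifts was not tested. Leaving out 1 library, the differences in FPKM shares lay between -2.81 and -2.52 for Eif4a2, 0.00977 and 0.0458 for Eif5a2, 0.0207 and 0.0218 for Eef1a2, -0.450 and -0.110 for Eif2s3y, -8.24 and -7.43 for Eif1b, 2.52 and 3.62 for Eif4e, and 4.23 and 5.41 for Eif4g1.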
